A study of Mus musculus with 12 samples.

Results

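The vascular endothelial growth factor (VEGF) ligands and receptors were followed through the mouse lumbar intervertebral disc, a tissue with few vessels, together with Pecam1, an adhesion molecule of endothelial cells. The set of 10 genes held the ligands Vegfa, Vegfb, Vegfc and Pgf, the receptors Flt1, Kdr and Flt4, the co-receptors Nrp1 and Nrp2, and Pecam1. Genes were taken by the symbol of the array's gene table, and the brightest probe set over the 12 arrays was to stand for a gene with several. Each of 9 genes had 1 probe set, among the 19505 named genes of the array. Nrp1 had no probe set under its symbol, so its level was not analysed here.

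RNA came from the nucleus pulposus (NP), the gel-like core of the disc, and the annulus fibrosus (AF), the fibrous ring around it. The mice were 12 months old, of strain C57BL/6, and either TonEBP +/- or wild type (WT). TonEBP, encoded by Nfat5, is a transcription factor that lets cells adapt to high osmolarity, and TonEBP +/- mice are labelled as haploinsufficient. The 4 groups were NP TonEBP +/-, NP WT, AF TonEBP +/- and AF WT, with 3 arrays each, every array holding the lumbar tissue of 1 animal. The allele, the sex of the mice and any link between the AF and NP of 1 mouse are not given in the sources used here.

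VEGF-A signals mainly through the receptor tyrosine kinase encoded by Kdr, while the receptor encoded by Flt1 binds VEGF-A, VEGF-B and placental growth factor and can hold VEGF-A back from Kdr. VEGF-C acts on Flt4 and guides lymphatic growth, and neuropilins bind both VEGFs and class 3 semaphorins. Vegfa is a known target of hypoxia-inducible factors, and NP cells live at low oxygen. Kdr, Flt4 and Pecam1 are usually expressed by endothelium, whereas neuropilins and Flt1 are also found in other cells.

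Sequences upstream of the 4 genes whose values the results turn on are shown first: Vegfa, Flt1 and Nrp2 for their difference between NP and AF, and Kdr and Nrp2 for their difference between genotypes in AF. Each is the 250 bases before a RefSeq start in build GRCm38.p6, written 5′ to 3′ on the gene's strand, with the motifs searched for in capitals.
Vegfa (chr17:46032378-46032627, minus strand): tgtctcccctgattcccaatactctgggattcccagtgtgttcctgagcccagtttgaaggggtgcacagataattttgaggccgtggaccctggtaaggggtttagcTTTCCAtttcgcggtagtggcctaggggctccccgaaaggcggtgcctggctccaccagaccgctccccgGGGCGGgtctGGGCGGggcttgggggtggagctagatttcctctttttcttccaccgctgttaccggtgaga
Flt1 (chr5:147726012-147726261, minus strand): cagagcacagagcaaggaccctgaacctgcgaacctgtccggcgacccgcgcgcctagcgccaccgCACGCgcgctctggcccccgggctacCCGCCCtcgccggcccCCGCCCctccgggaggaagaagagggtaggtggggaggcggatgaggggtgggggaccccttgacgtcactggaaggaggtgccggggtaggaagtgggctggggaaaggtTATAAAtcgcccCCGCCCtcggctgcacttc
Nrp2 (chr1:62703067-62703316, plus strand): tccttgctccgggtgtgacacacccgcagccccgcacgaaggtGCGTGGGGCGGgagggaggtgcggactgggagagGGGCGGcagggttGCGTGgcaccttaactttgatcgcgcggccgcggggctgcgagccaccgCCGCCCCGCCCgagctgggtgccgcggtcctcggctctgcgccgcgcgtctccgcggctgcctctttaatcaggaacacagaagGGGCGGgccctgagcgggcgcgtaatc
Kdr (chr5:75978456-75978705, minus strand): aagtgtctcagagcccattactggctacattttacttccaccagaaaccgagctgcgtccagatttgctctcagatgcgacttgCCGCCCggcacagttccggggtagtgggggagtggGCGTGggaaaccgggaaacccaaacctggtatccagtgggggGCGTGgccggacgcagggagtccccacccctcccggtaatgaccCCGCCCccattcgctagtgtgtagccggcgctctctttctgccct

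RefSeq promoters matched 9 of the 10 genes, Nrp1 included and Pecam1 not, with 11 starts, since Vegfa and Pgf each had 2. The motifs, searched on both strands, were TGGAAA (core of the TonEBP element), ACGTG and GCGTG (cores of the hypoxia response element), GGGCGG (GC box) and TATAAA. On either strand, GGGCGG stood in 10 of the 11 promoters and GCGTG in 7 of 11, against 32.7% and 28.2% of 32851 promoters of the same length. TGGAAA stood in 1 of 11 (18.6% of all promoters), at the first Vegfa start, where it was read as TTTCCA on the printed strand from 142 bases before the start. ACGTG stood in 1 of 11 (16.6%), at the other Vegfa start. TATAAA stood in 1 of 11 (12.4%), that of Flt1, from 31 bases before the start. In the Nrp2 sequence 2 GC boxes overlapped by 1 base. These matches describe the letters only.

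Values are the authors' RMA signals on the log2 scale, where RMA is a procedure that corrects background, scales arrays and sums up probes. Each array carries 23 probe sets for background, and their 95th percentile, 7.11 to 7.98 over the arrays, was the level above which a gene was read as present. Levels of different genes are not set against each other, since each gene has its own probes. AF arrays had medians of 7.43 to 7.64 and NP arrays of 6.82 to 6.87, so changes between tissues are also given after each array's median was taken away. The third AF TonEBP +/- array had the widest interquartile range of the AF arrays, 3.11 against 2.36 to 2.66 in the other 5.

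Nfat5, the targeted gene, did not separate the genotypes. It had 9.06, 9.62 and 9.09 in NP TonEBP +/- and 9.12, 8.80 and 8.34 in NP WT, a difference of 0.50 (95% interval -0.35 to 1.36, adjusted p = 1). It had 8.91, 8.94 and 8.74 in AF TonEBP +/- and 7.70, 8.69 and 9.93 in AF WT, a difference of 0.09 (95% interval -0.77 to 0.94, adjusted p = 0.923). A fall of 1 log2 unit is outside the 2 intervals. Whether the probes lie inside the part of Nfat5 that the allele lacks is not given, so this is no check of the labels, and each direction between genotypes below rests on the labels alone.

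The mean of the NP markers was higher in the NP arrays, though single markers went both ways, and markers of other cell types were present in AF. The mean over 14 measured NP markers was 11.87 to 12.03 in NP TonEBP +/- and 11.95 to 12.04 in NP WT, against 8.93 to 9.24 in AF TonEBP +/- and 9.41 to 10.22 in AF WT. Of the 14, 8 were higher in NP and 4 lower in TonEBP +/-, and 8 and 5 in WT. Car12 and Foxf1, among those lower in WT, were at background in both tissues there, so no change is given for them. Over all clusters, 20% were higher and 54.4% lower in TonEBP +/-, and 22.2% and 56.1% in WT. The keratin gene Krt19 was 8.19 log2 units higher in NP in WT (adjusted p = 2.92e-08), whereas Pax1, a factor of the embryonic sclerotome, was lower in NP in WT (bound -1.28, adjusted p = 4.48e-08), where 2 of 3 AF WT arrays were above background. The mean over 13 neutrophil markers was 8.91 to 10.81 in NP TonEBP +/- and 11.28 to 12.70 in NP WT, against 16.58 to 17.26 in AF TonEBP +/- and 15.61 to 16.08 in AF WT. In such bulk samples, fewer cells of a type and less RNA per cell cannot be told apart.

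Endothelial markers were at background in NP and partly above it in AF. Of 19 measured endothelial genes, 19 were at background in all NP arrays, Cdh5, the cadherin of endothelial junctions, among them. In AF TonEBP +/- 7 of the 19 were above background on 3 of 3 arrays and in AF WT also 7, with 9 and 10 at background on every array. The summed signal of the 19 genes was 750 to 866 in NP TonEBP +/- and 815 to 925 in NP WT on the linear scale, against 4847 to 8709 in AF TonEBP +/- and 3546 to 4868 in AF WT. Cdh5 had 9.43, 9.55 and 10.77 in AF TonEBP +/- and 8.01, 10.01 and 8.31 in AF WT, overlapping.

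**Figure D1:**
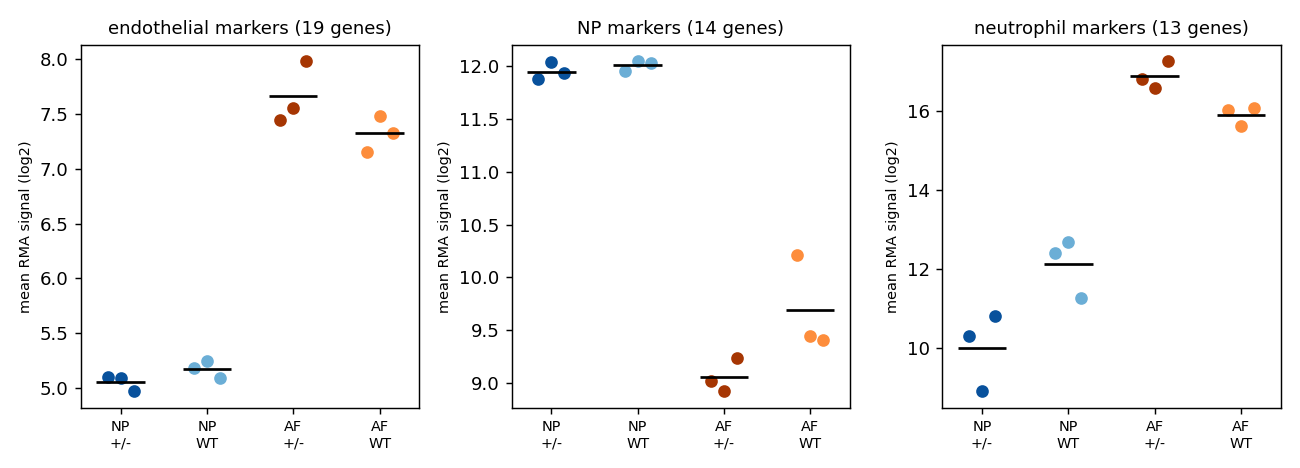
Mean RMA signal (log2) over the measured endothelial, NP and neutrophil markers on each array, with NP TonEBP +/-, NP WT, AF TonEBP +/- and AF WT from left to right; each point is 1 array and each bar the mean of 3. Endothelial means lie between 4.97 and 5.24 in NP and between 7.16 and 7.98 in AF.

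Vegfa, Flt1 and Nrp2 were many times higher in NP than in AF in both genotypes. Pgf, Pecam1 and, where it could be read, Kdr were at background in NP and lower there than in AF. Between genotypes in AF, Kdr and Nrp2 were higher in the arrays labelled TonEBP +/-, and no gene of the set was called in NP.

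**Figure D2:**
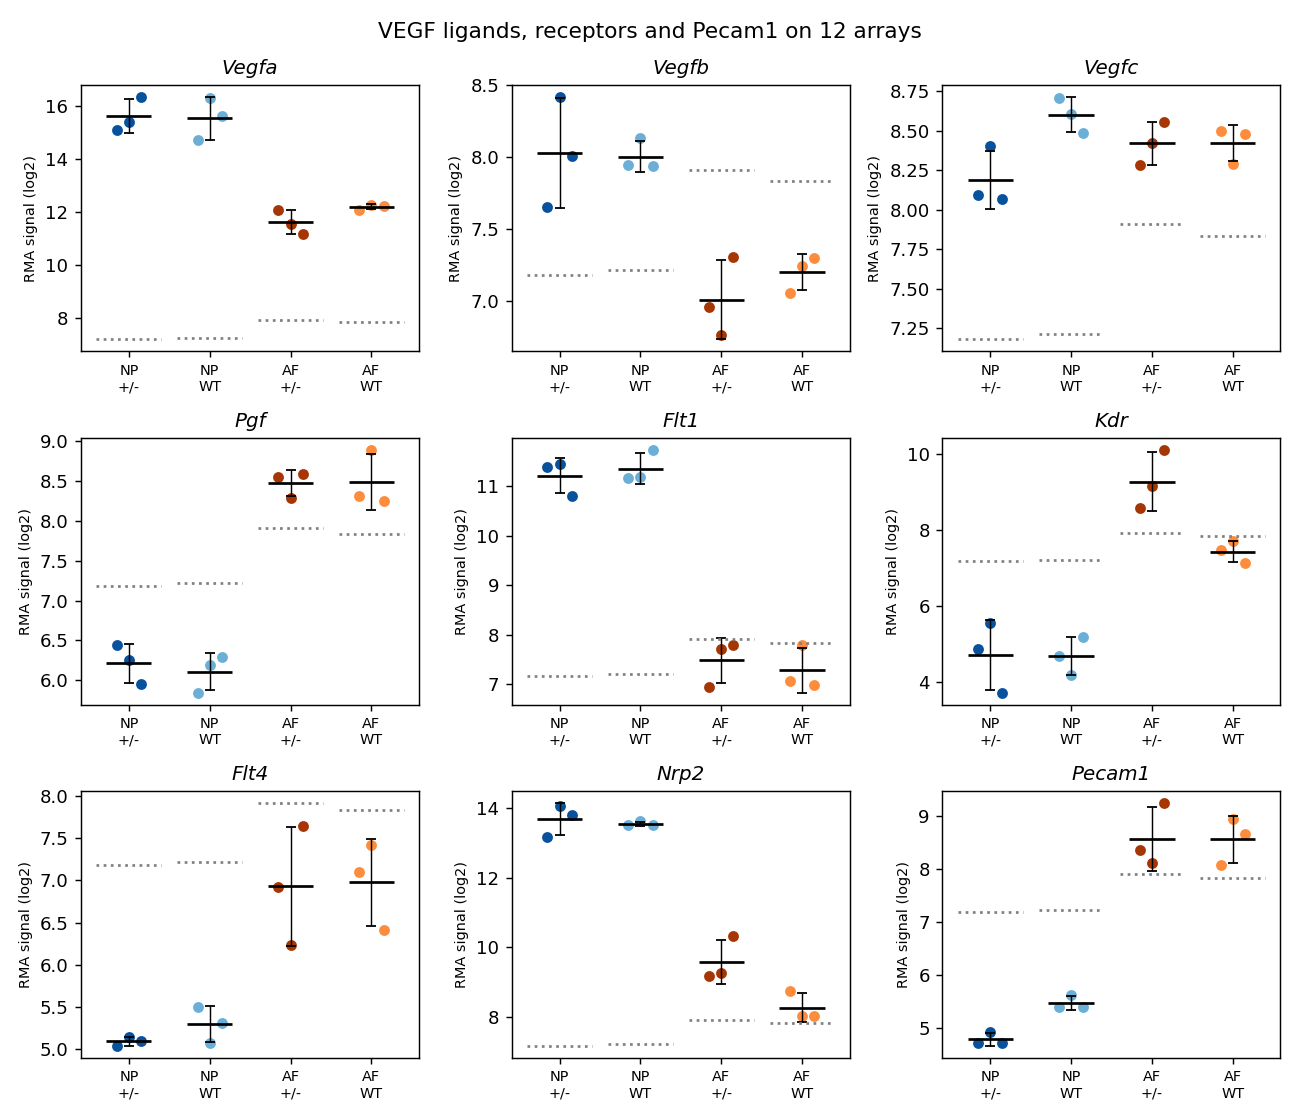
RMA signal (log2) of the 9 measured genes, with NP TonEBP +/-, NP WT, AF TonEBP +/- and AF WT from left to right in each panel; each point is 1 array, bars are the mean and SD of 3 arrays, and the dotted line is the mean background level of the group. Vegfa, Flt1 and Nrp2 lie higher in NP, Pgf and Pecam1 higher in AF, and Flt4 lies under the background level in the 4 groups; axes are scaled per gene and do not start at 0.

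Vegfa, the main angiogenic ligand, was above background on 12 of 12 arrays. It had 15.10, 15.40 and 16.33 in NP TonEBP +/-, 14.69, 16.29 and 15.60 in NP WT, 12.07, 11.55 and 11.17 in AF TonEBP +/-, and 12.08, 12.26 and 12.22 in AF WT. The 6 NP arrays lay above the 6 AF arrays, and the 2 NP groups overlapped. NP exceeded AF 16.1-fold in TonEBP +/- (log2 difference 4.01 ± 0.38 SE, adjusted p = 1.80e-07) and 10.1-fold in WT (3.34 ± 0.38 SE, adjusted p = 1.71e-06). With array medians taken away these were 26.0-fold and 16.9-fold.

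Tissue comparisons called most of the array, so the count of called genes in this set says little. Of the 9 genes, 8 were called between NP and AF in TonEBP +/-, where 74.3% of 22206 clusters were called, 20% higher and 54.4% lower. In WT 8 of 9 were likewise called, where 78.3% of clusters were, 22.2% higher and 56.1% lower. The tissues did not overlap for 73.7% of clusters in TonEBP +/- and 81.7% in WT, so values apart are the rule here. In each genotype 4 of the 9 were higher in NP (Vegfa, Vegfb, Flt1, Nrp2) and 4 lower (Pgf, Kdr, Flt4, Pecam1). The median change over all clusters was -0.75 in TonEBP +/- and -0.84 in WT, so taking array medians away raises the fold of a gene that is higher in NP and lowers that of one that is lower. With array medians taken away 56.2% of clusters were called in TonEBP +/-, 30.9% higher and 25.3% lower, and 65% in WT, 33.7% higher and 31.3% lower; of the 9 genes 4 were then higher and 4 lower in TonEBP +/-, and 5 and 4 in WT, with Vegfc the one added. No size is given for Flt4 in either genotype or for Kdr in WT, because both tissues were at background there.

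Vegfb, a ligand of Flt1, was above background only in NP. It had 7.65, 8.42 and 8.01 in NP TonEBP +/- and 7.94, 8.13 and 7.94 in NP WT, against 6.96, 6.77 and 7.31 in AF TonEBP +/- and 7.06, 7.25 and 7.30 in AF WT. The tissues did not overlap, but the AF values were bounds, and NP exceeded the AF background level at least 1.09-fold in TonEBP +/- (adjusted p = 0.00133) and at least 1.12-fold in WT (adjusted p = 0.0061).

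Vegfc, the lymphatic ligand, was above background on all 12 arrays and lay in a narrow range. It had 8.10, 8.40 and 8.07 in NP TonEBP +/-, 8.71, 8.61 and 8.49 in NP WT, 8.28, 8.42 and 8.56 in AF TonEBP +/-, and 8.50, 8.29 and 8.48 in AF WT. NP minus AF was -0.23 (95% interval -0.67 to 0.21, adjusted p = 0.316) in TonEBP +/- and 0.18 (95% interval -0.26 to 0.62, adjusted p = 0.432) in WT. The reading depended on the scaling: with medians taken away NP minus AF was 0.46 in TonEBP +/- (adjusted p = 0.0751) and 0.92 in WT (adjusted p = 0.00135).

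Pgf, which encodes placental growth factor, showed the opposite order to Vegfb. It had 6.44, 6.25 and 5.95 in NP TonEBP +/- and 5.85, 6.19 and 6.29 in NP WT, under background throughout, against 8.55, 8.29 and 8.59 in AF TonEBP +/- and 8.32, 8.89 and 8.25 in AF WT. It was at least 2.46-fold lower in NP in TonEBP +/- (adjusted p = 7.60e-07) and at least 2.41-fold lower in WT (adjusted p = 6.40e-07), or at least 1.52-fold and 1.44-fold with medians taken away. Among the ligands, then, Vegfa and Vegfb were higher in NP, Pgf was higher in AF, and Vegfc was not called as deposited.

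Flt1, the receptor shared by VEGF-A, VEGF-B and placental growth factor, was above background on 6 of 6 NP arrays and on none of 6 AF arrays. It had 11.38, 11.45 and 10.80 in NP TonEBP +/- and 11.16, 11.18 and 11.72 in NP WT, against 6.95, 7.71 and 7.79 in AF TonEBP +/- and 7.07, 7.80 and 6.99 in AF WT. NP exceeded the AF background level at least 9.85-fold in TonEBP +/- (adjusted p = 3.08e-08) and at least 11.5-fold in WT (adjusted p = 2.28e-08), and at least 15.9-fold and 19.1-fold with medians taken away. This was the reverse of the endothelial list, of which 19 of 19 measured markers were at background in NP. Macrophages can also carry Flt1, and of 11 macrophage markers 8 were at background on every NP array in each genotype. Csf1r, their growth factor receptor, was not among those 8: it had 12.47, 12.11 and 11.35 in NP TonEBP +/- and 12.13, 11.29 and 12.49 in NP WT, and in WT it was 2.71 log2 units higher in NP than in AF (adjusted p = 0.000207). It was the 1 macrophage marker higher in NP in WT, where the other 10 were lower, beside 56.1% of all clusters. In TonEBP +/- 0 were higher and 10 lower, beside 54.4% of all clusters lower. Csf1r was not called there (0.74, adjusted p = 0.205), though it was called higher there with medians taken away. Under that scaling 7 of the 11 markers were lower in WT and 8 in TonEBP +/-, beside 31.3% and 25.3% of all clusters. The part of macrophages in the Flt1 signal was not tested.

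Kdr, the main signalling receptor for VEGF-A, was above background in 1 group of the 4. It had 4.85, 5.56 and 3.72 in NP TonEBP +/- and 4.67, 4.17 and 5.17 in NP WT, with 8.57, 9.15 and 10.10 in AF TonEBP +/- and 7.46, 7.70 and 7.13 in AF WT. The 3 AF TonEBP +/- arrays lay above the other 9. In TonEBP +/- it was at least 4.27-fold lower in NP than in AF (adjusted p = 1.92e-07), or at least 2.64-fold with medians taken away. Flt4, the VEGF-C receptor, was above background on 0 of 12 arrays, with a highest value of 7.64 on the third AF TonEBP +/- array. The NP arrays thus held a high Vegfa signal with Flt1 above background and with Kdr and Flt4 at background.

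Nrp2, a co-receptor for VEGF-C and for semaphorins, was above background on all 12 arrays and had the largest fitted difference between tissues of the 9 genes in WT. It had 13.17, 14.07 and 13.79 in NP TonEBP +/-, 13.53, 13.62 and 13.51 in NP WT, 9.17, 9.26 and 10.31 in AF TonEBP +/-, and 8.74, 8.03 and 8.04 in AF WT. NP exceeded AF 17.1-fold in TonEBP +/- (4.10 ± 0.32 SE, adjusted p = 2.14e-08) and 38.9-fold in WT (5.28 ± 0.32 SE, adjusted p = 2.70e-09), or 27.6-fold and 64.9-fold with medians taken away. The AF WT arrays were lowest, the AF TonEBP +/- arrays next, and the 2 NP groups overlapped.

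Pecam1, like the 19 endothelial markers, was at background in NP. It had 4.71, 4.93 and 4.72 in NP TonEBP +/- and 5.39, 5.63 and 5.40 in NP WT, all under background, against 8.35, 8.10 and 9.23 in AF TonEBP +/- and 8.06, 8.95 and 8.65 in AF WT. It was at least 2.61-fold lower in NP in TonEBP +/- (adjusted p = 2.00e-08) and at least 2.53-fold lower in WT (adjusted p = 3.20e-07). With medians taken away the bounds were 1.62-fold and 1.51-fold.

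**Figure D3:**
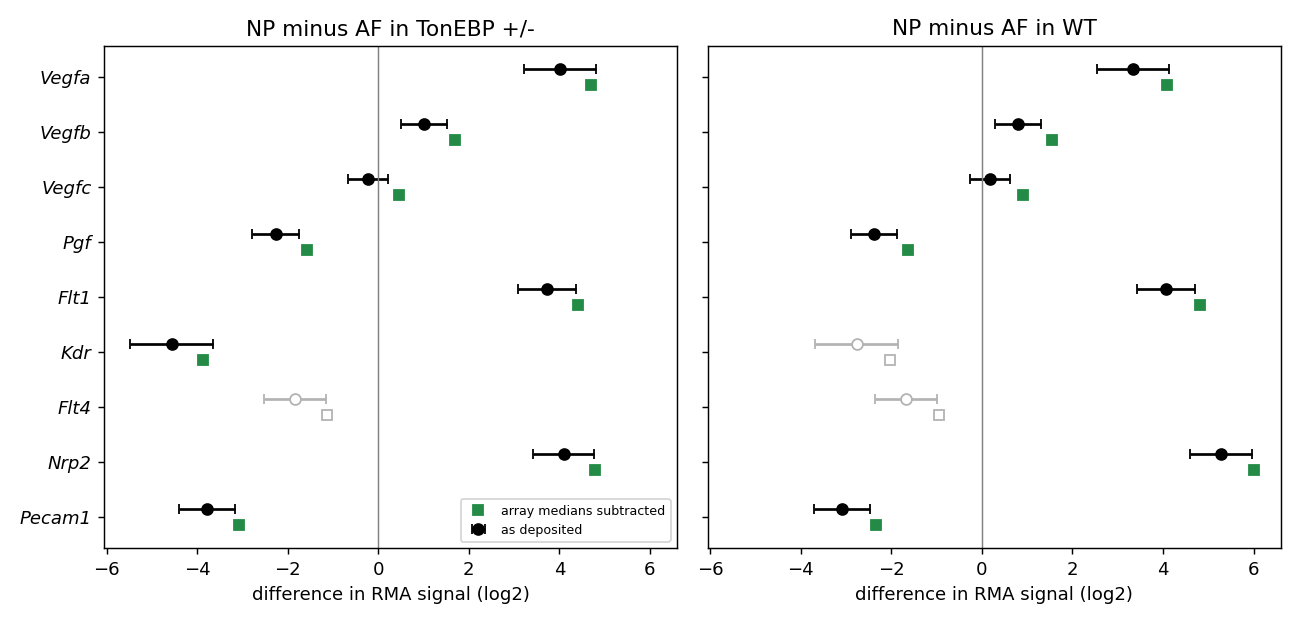
NP minus AF (log2) for the 9 genes in TonEBP +/- (left) and WT (right): circles are values as deposited with 95% intervals and squares are values with array medians subtracted; open grey symbols mark genes at background in both tissues. Vegfa, Vegfb, Flt1 and Nrp2 lie to the right of 0 and Pgf and Pecam1 to the left in both genotypes under both scalings, while Vegfc crosses 0.

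Between genotypes in AF, 2 of the 9 genes were called, both higher in TonEBP +/-, where 6.07% of clusters were called, 2.76% higher and 3.31% lower. Kdr, with the values above, was at least 2.71-fold higher in AF TonEBP +/- than the background level of AF WT (fitted difference 1.84 ± 0.43 SE, adjusted p = 0.0260). Nrp2 was 2.48-fold higher (1.31 ± 0.32 SE, 95% interval 0.63 to 1.98, adjusted p = 0.0289). For both genes the 3 AF TonEBP +/- arrays lay above the 3 AF WT arrays, as 10% of all clusters did, and the third AF TonEBP +/- array was the highest. Without that array the differences were 1.43 for Kdr (adjusted p = 0.122) and 0.94 for Nrp2 (adjusted p = 0.128).

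The Kdr and Nrp2 calls depended on single arrays and on the estimate of spread. The Kdr call was also lost without AF WT replicate 1, 2 or 3 (adjusted p = 0.0631, 0.0611 and 0.0730), and the Nrp2 call without AF WT replicate 2 or 3 (0.102 and 0.0813) or AF TonEBP +/- replicate 1 (0.0501). With the spread of the 6 AF arrays alone the adjusted p was 0.102 for Kdr and 0.124 for Nrp2.

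The other AF differences were not called. Vegfa was 0.59 log2 units lower in AF TonEBP +/- (95% interval -1.39 to 0.21, adjusted p = 0.374), and its 3 TonEBP +/- arrays lay below the 3 WT arrays, as 12.3% of clusters did, the nearest values being 12.07 and 12.08. Vegfc, Pgf and Pecam1 differed by less than 0.01, with 95% intervals of -0.44 to 0.44, -0.52 to 0.50 and -0.61 to 0.63. Vegfb, Flt1 and Flt4 were at background in both genotypes.

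Markers of other cell types are given beside these AF differences. Of 19 endothelial genes 1 was called, and it was higher, beside 2.76% of all clusters called higher and 6.07% called either way. This was Plvap, a protein of fenestrated endothelium, above background on 3 of 3 AF TonEBP +/- arrays and 0 of 3 AF WT arrays. The fitted difference of Plvap was 1.40 (bound 0.81 log2, adjusted p = 0.0205). The median change was 0.39 over the 19 endothelial genes and -0.04 over all clusters. Against 2.76% of all clusters called higher, 6 of 8 osteoblast genes were, among them Col1a1, a chain of type I collagen (4.18, adjusted p = 0.00772), and 3 of 8 osteoclast genes, among them Acp5, tartrate-resistant acid phosphatase (4.13, adjusted p = 0.0162). Of 13 neutrophil genes 4 were higher and of 11 macrophage genes 2, Csf1r (1.98, adjusted p = 0.0370) and Aif1. The NP marker mean was 8.93 to 9.24 in AF TonEBP +/- and 9.41 to 10.22 in AF WT. Of 14 NP markers 1 was called, Krt19, lower in AF TonEBP +/- (-2.19, adjusted p = 0.0476), beside 3.31% of all clusters called lower. Krt19 was called in 1 of 12 fits with 1 array left out. The osteoclast mean was 9.20, 9.14 and 10.18 in AF TonEBP +/- and 8.50, 7.22 and 8.23 in AF WT, highest on the array that was highest for Kdr and Nrp2. Without that array, where 81 of 22206 clusters were called, the counts were 0 for endothelium, macrophages, neutrophils and NP markers. They were 2 for osteoblasts and 1 for osteoclasts. The part of these cells in the Kdr and Nrp2 differences was not tested.

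In NP, 0 of the 9 genes were called between genotypes by limma, where 0.113% of clusters were called, none of them higher. At an unadjusted p under 0.05, 827 clusters passed. Vegfc was 0.41 log2 units lower in NP TonEBP +/- (95% interval -0.85 to 0.02, adjusted p = 1), and its 3 TonEBP +/- arrays lay below the 3 WT arrays, as 5.93% of clusters did. The differences of Vegfa, Vegfb, Flt1 and Nrp2 were 0.08 (95% interval -0.72 to 0.88), 0.02 (-0.48 to 0.53), -0.14 (-0.78 to 0.49) and 0.12 (-0.55 to 0.80). The intervals for Vegfa and Nrp2 leave room for changes of over 0.5 log2 units either way. Pgf, Kdr, Flt4 and Pecam1 were at background in both NP groups.

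**Figure D4:**
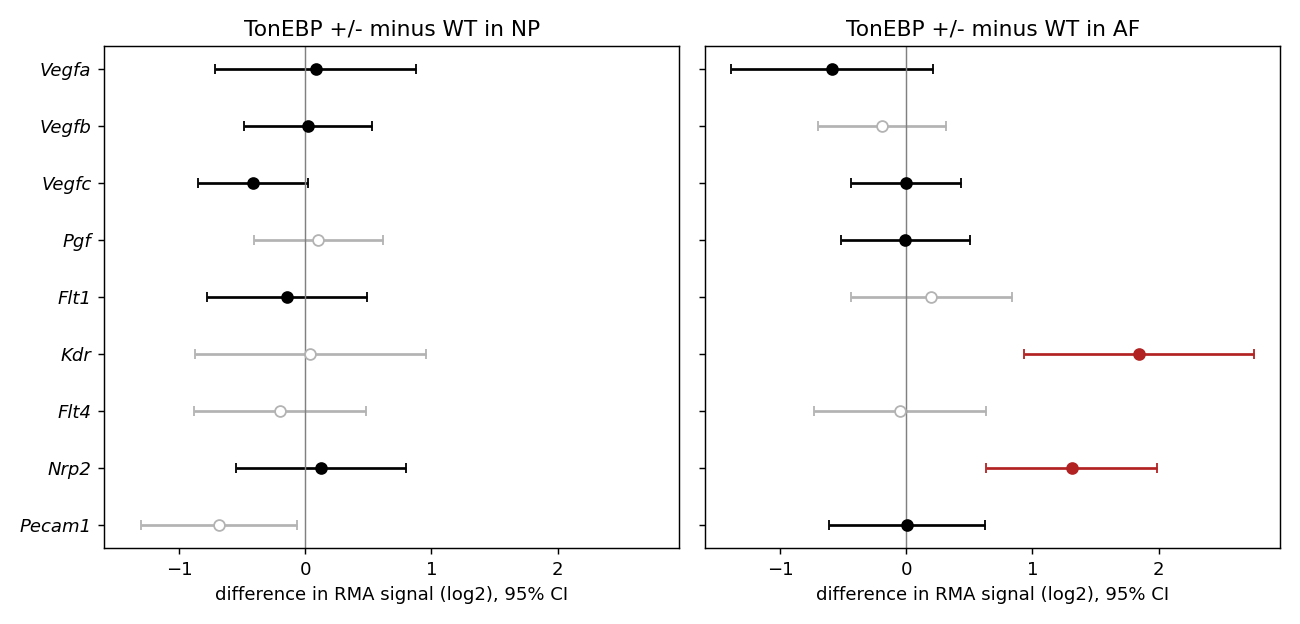
TonEBP +/- minus WT (log2) in NP (left) and AF (right) for the 9 genes, with 95% intervals from limma; red marks called genes and open grey symbols genes at background in both genotypes. Kdr and Nrp2 in AF are the 2 called genes, with fitted differences of 1.84 and 1.31.

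The difference between the genotype effects in NP and in AF was tested as an interaction. It called 0 of the 9 genes, where 0.887% of clusters were called (0.122% higher, 0.766% lower) and 3119 passed at an unadjusted p under 0.05. For Nrp2, above background in the 4 groups, the interaction was -1.19 ± 0.45 SE (adjusted p = 0.229), so its AF difference is not shown to differ from that in NP. Kdr was at background in both NP groups and in AF WT, so no size of its interaction is given, and whether its genotype effects differ between the tissues could not be read.

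Most of the genes through which oxygen sets Vegfa were higher in NP. The list held the hypoxia-inducible factor subunits, the hydroxylases that mark them for decay and their modifiers. In WT 7 of 10 were higher and 0 lower, beside 22.2% and 56.1% of all clusters, with a median change of 1.81, against -0.84 over all clusters; with medians taken away 10 were higher and the median was 2.55, beside a background of 33.7% called higher. In TonEBP +/- 6 of 10 were higher and 0 lower, beside 20% and 54.4% of all clusters. The largest in WT were the prolyl hydroxylases Egln3 (6.23 ± 0.34 SE, adjusted p = 1.04e-09) and Egln1 (4.40 ± 0.25 SE, adjusted p = 1.22e-09), and Cited2, which competes with these factors for a co-activator (2.36 ± 0.41 SE, adjusted p = 8.78e-05). Egln3 had 14.58, 14.99 and 15.30 in NP TonEBP +/- and 14.77, 15.19 and 15.00 in NP WT, against 8.34, 8.45 and 9.17 in AF TonEBP +/- and 9.40, 8.98 and 7.89 in AF WT. In AF 1 of the 10 was called between genotypes, beside 2.76% of all clusters called higher and 3.31% lower. This was Cited2, higher in TonEBP +/- (1.43 ± 0.41 SE, adjusted p = 0.0499). It was called in 3 of 12 fits with 1 array left out, not without the third AF TonEBP +/- array, and had an adjusted p of 0.112 with the spread of the AF arrays alone.

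Of 16 genes that signal below the VEGF receptors, 6 were higher in NP in WT and 4 lower, beside 22.2% and 56.1% of all clusters. Of the 4, Sh2d2a and Nos3 were at background in both tissues, so no change is given for them. With medians taken away 10 were higher and 2 lower, beside 33.7% and 31.3%. Hspb1, a heat shock protein phosphorylated after VEGF stimulation, was 5.09 log2 units higher in NP (adjusted p = 2.56e-07), and Prkca, a protein kinase C, 3.15 higher (adjusted p = 1.14e-06). Prkcb, another protein kinase C, was lower in NP (difference -2.99, adjusted p = 3.87e-07). In AF 2 of 16 were called between genotypes, both higher in TonEBP +/-, beside 2.76% of all clusters called higher. Akt1, a survival kinase, had 11.81, 11.27 and 12.62 in AF TonEBP +/- and 10.68, 10.55 and 10.18 in AF WT (1.43 ± 0.30 SE, adjusted p = 0.0210). Rac1, a small GTPase of cell movement, had 16.42, 16.26 and 16.95 against 15.79, 15.14 and 15.36 (1.12 ± 0.25 SE, adjusted p = 0.0233). Neither was called without the third AF TonEBP +/- array.

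Semaphorins and plexins, which share the neuropilins with the VEGFs, split between the tissues. In WT 5 of 13 were higher in NP and 7 lower, with a median of -0.95, beside 22.2% of all clusters higher and 56.1% lower and their median of -0.84. On 3 of 3 arrays, 6 of the 13 were at background in NP WT and 4 in AF WT. Sema3g, one of the 7, was at background in both, so no change is given for it. With medians taken away 6 were higher and 4 lower, so which direction held more genes depended on the scaling. Sema3b was 5.16 log2 units higher (adjusted p = 2.75e-10), Sema3c 3.05 higher (adjusted p = 1.25e-07), and the plexin Plxna2 at least 3.12 higher (adjusted p = 1.96e-07). Plxnd1, a plexin of vessels, was lower in NP (bound -1.15, adjusted p = 4.68e-05). Sema3c had 12.24, 12.04 and 11.44 in NP TonEBP +/- and 12.32, 11.86 and 12.20 in NP WT, against 7.87, 8.54 and 8.26 in AF TonEBP +/- and 8.81, 9.16 and 9.26 in AF WT. No member of the list was called between genotypes in AF or NP.

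Of 11 angiogenesis inhibitors 8 were lower in NP in WT and 2 higher, with a median of -1.60, where 56.1% of all clusters were lower. Of the 11, 2 were at background on every array, so no change can be given for those. With medians taken away 7 were lower and 2 higher, where 31.3% of clusters were lower. Thbs1, thrombospondin, had 8.68, 6.04 and 7.78 in NP TonEBP +/- and 10.53, 6.40 and 7.39 in NP WT, against 15.75, 13.92 and 14.34 in AF TonEBP +/- and 14.66, 16.23 and 17.04 in AF WT (difference -7.87 in WT, adjusted p = 1.60e-06). Cnmd, chondromodulin, a cartilage protein that keeps vessels out, differed by -7.83 in WT (adjusted p = 1.80e-06). Timp3, a metalloproteinase inhibitor that also blocks VEGF-A binding to Kdr, was one of the 2 that were higher in NP, by 5.48 log2 units (adjusted p = 6.66e-09). The other was Col18a1, the source of endostatin, with a bound of 0.32 (adjusted p = 0.000136). In AF 1 of 11 was called between genotypes, beside 2.76% of all clusters called higher and 3.31% lower. This was the chemokine Cxcl14, higher in TonEBP +/- (0.94 ± 0.25 SE, adjusted p = 0.0388), and not called without the third AF TonEBP +/- array.

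Most of the angiopoietin, Notch and ephrin genes of vessels had lower fitted values in NP, as did most clusters. In WT 11 of 14 were lower and 1 higher, beside 56.1% and 22.2% of all clusters. With medians taken away 7 were lower and 1 higher, beside 31.3% and 33.7%. On 3 of 3 arrays, 13 of the 14 were at background in NP WT and 9 in AF WT. The counts thus include genes at background in both tissues, for which no change is given. Angpt1, a ligand that steadies vessels, was lower in NP (bound -1.27 log2 units, adjusted p = 2.06e-07). Ephb4, a receptor of venous endothelium, was at least 1.42 higher in NP (adjusted p = 7.64e-06). In AF Esm1, an endothelial gene, passed the test between genotypes but was at background in both, so no size is given.

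**Figure D5:**
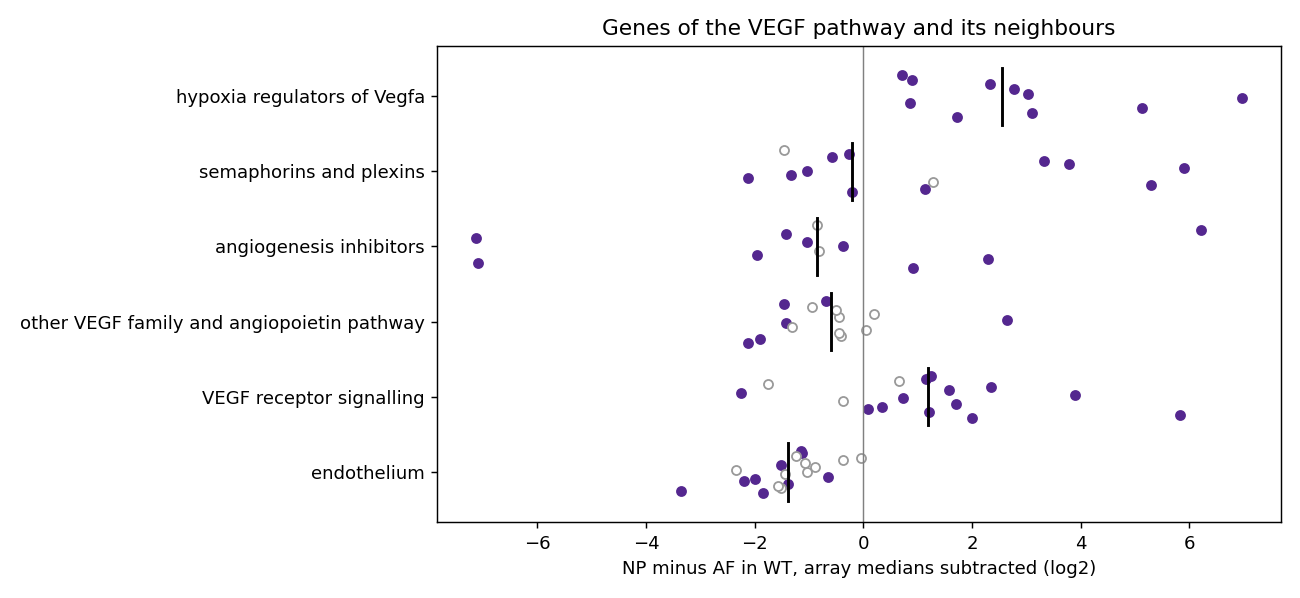
NP minus AF in WT (log2, array medians subtracted) for the genes of 6 lists, 1 point a gene; filled points are genes above background in at least 1 of the tissues, open points genes at background in both, and bars the list medians. The median of the hypoxia list is 2.55 and that of the endothelial list -1.38.

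Mural cells, which wrap small vessels, gave mixed markers in AF. Between genotypes 2 of 11 were higher in TonEBP +/- and 1 was lower, beside 2.76% and 3.31% of all clusters. Without the third AF TonEBP +/- array 0 were higher and 1 lower, where 81 of 22206 clusters were called. Pdgfrb, the receptor that recruits pericytes, had 10.05, 9.65 and 10.91 in AF TonEBP +/- and 8.63, 8.52 and 9.36 in AF WT (1.37 ± 0.33 SE, adjusted p = 0.0287). Abcc9, a potassium channel subunit, had a bound of 0.63 (adjusted p = 0.0172). Ndufa4l2, which is also a hypoxia-induced mitochondrial gene, had 9.82, 9.57 and 10.27 in AF TonEBP +/- and 12.48, 11.70 and 11.82 in AF WT (-2.11 ± 0.26 SE, adjusted p = 0.00185). It was called in 12 of 12 fits with 1 array left out, but had an adjusted p of 0.0961 with the spread of the AF arrays alone. Of 6 lymphatic genes 0 were called between genotypes in either tissue.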

How the data were processed

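RNA of 12 mouse disc samples (4 groups of 3) was measured on Clariom S arrays. The deposited values are log2 signals made by the authors with RMA in Affymetrix Expression Console, per the submitters' processing notes; versions and settings are not given in the sources used here. The highest value per array was 19.86 to 19.93.

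Of 28846 probe sets, 22206 transcript clusters were tested and 6640 control probe sets left out; 2634 clusters have no name here. The 10 genes and the gene lists were chosen with earlier results of these data known. Group means were fitted to all 12 arrays with limma 3.58.1 (R 4.3.3; 8 residual and 7.93 prior degrees of freedom) and adjusted by Benjamini and Hochberg over 22206 clusters; calls are at an adjusted p under 0.05. Where 1 group was at background on 3 of 3 arrays, folds are bounds against its mean background level ("at least"), with adjusted p from the fit. The fit was tested on simulated data. Figures used Python 3.11.15 and matplotlib 3.10.9.

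Named genes are the 10 genes, Nfat5, from each list up to 4 called genes per tissue between genotypes and up to 3 per direction between tissues, and the 3 nearest profiles of 4 genes; between tissues, names are limited here to WT and to lists of the pathway. Alternatives were other scalings, a filter on dim clusters, an intensity trend, array weights, the spread of the compared arrays alone and leaving out each array. No depth applies to arrays: their number limits the precision. No 2 arrays were duplicates (smallest SD of a difference 0.414).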

Additional observations from a re-analysis of the deposited data

Results flagged for a closer look

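The interaction was looked up for list genes called between genotypes, up to 4 per list and tissue. For 15 of these, the genotype effect in NP minus that in AF passed limma's test. Over all 22206 clusters that test called 0.887%. The genes looked up were chosen by a genotype call on the same arrays, so that share is no yardstick for the 15. The 15 are not a full count over the lists: of 13 neutrophil genes 7 passed, and not all are named here. None of the 15 is a VEGF ligand or receptor. In 5 of them, Plvap, Cebpe, Ibsp, Atp6v0d2 and Lum, both NP groups were at background (0 of 3 arrays each), and Plvap and Cebpe were at background in AF WT too, so their interactions are fitted values against levels that could not be read. In Camp, Ctsg, Prtn3 and Ermap NP TonEBP +/- was at background. With 1 array left out in turn, the interaction was called in 12 of 12 fits for Mpo, Elane, Ctsg, Camp and Ibsp, in 11 for Ndufa4l2, and in 2 to 8 for the others. Of the vessel lists, the interaction was -1.88 log2 units for Plvap (adjusted p = 0.0450) and 2.18 for Ndufa4l2 (adjusted p = 0.0157). Of neutrophil granule genes and their regulator it was -2.15 for Cebpe, -4.50 for Camp, -3.49 for Ctsg, -2.68 for Prtn3, -4.31 for Mpo and -4.91 for Elane. Of erythroid genes it was -2.88 for Slc4a1 and -2.17 for Ermap. Of bone genes it was -3.38 for Ibsp, -4.23 for Col1a1 and -3.78 for Atp6v0d2, and of AF matrix genes 2.28 for Fmod and -2.14 for Lum.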

How the results depend on the processing

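Between tissues 8 of the 9 genes were called in each genotype in 12 of 12 fits with 1 array left out, with the spread of the compared arrays alone, with an intensity trend and with array weights. With medians subtracted 8 were called in TonEBP +/- and 9 in WT, with quantile normalization 7 in each genotype, and with dim clusters left out 7 of the 8 still tested. The calls of Vegfa, Vegfb, Pgf, Flt1, Nrp2 and Pecam1 were kept with quantile normalization in both genotypes. A change of direction was seen for Vegfc in TonEBP +/-, where NP minus AF was 0.46 with array medians subtracted and 0.038 with quantile normalization. The number of called genes in AF between genotypes was 2, against 0 with the spread of the AF arrays alone and 0 to 2 with 1 array left out.

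Counts of clusters moved more. In AF between genotypes 1347 were called, against 2815 with array weights, 3 with the spread of the AF arrays alone, and 81 to 4029 with 1 array left out (81 without the third AF TonEBP +/- array). In NP 25 were called, against 13 with medians subtracted, 82 with array weights, 0 with the spread of the NP arrays alone, and 2 to 79 with 1 array left out. The interaction called 197, against 875 with array weights and 22 to 1319 with 1 array left out. Between NP and AF 16510 were called in TonEBP +/- and 17387 in WT, against 8694 and 9023 among the 12290 clusters above background on at least 3 arrays, a smaller set, and 10866 in TonEBP +/- with quantile normalization. The share of higher among called clusters was 26.9% in TonEBP +/- as deposited, 54.9% with medians subtracted and 50.5% with quantile normalization, and 28.3%, 51.8% and 49.8% in WT. In AF between genotypes it was 45.4% as deposited and 55.9% with medians subtracted. The causes were not tested.

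Differences near 0 that were not called changed sign. In AF, Vegfc was 0.088 and Pgf 0.081 with medians subtracted, Pecam1 -0.12 with quantile normalization, and Pgf 0.031 and Pecam1 -0.19 with array weights. With 1 array left out, the AF differences ran from -0.070 to 0.067 for Vegfc, -0.13 to 0.19 for Pgf and -0.33 to 0.24 for Pecam1. The NP differences ran from -0.34 to 0.46 for Vegfa, -0.17 to 0.21 for Vegfb, -0.26 to 0.060 for Flt1 and -0.072 to 0.38 for Nrp2, and the interaction from -0.091 to 0.24 for Pgf. No paired analysis was possible because the labels give the groups no shared replicate or animal numbers. Each gene had 1 probe set, so a mean over probe sets could not be run. With 3 arrays a group, signals under 7.11 to 7.98 log2 are bounds.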

Other observations

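The genes whose profile over the 12 arrays lay nearest to that of a VEGF gene were found by the root mean square difference of log2 values after each gene's own mean was taken away, among 9952 named genes above background on 3 of 3 arrays of at least 1 group. For Vegfa these were Lypd6 (0.38), Cobl (0.38) and Tubb2b (0.39), against a variation of Vegfa about its own mean of 1.91. For Flt1 they were Mapre3 (0.28), Parva (0.31) and Nckap1 (0.33), against 1.98. For Kdr they were Fbln5 (0.54), Creb3l1 (0.57) and Col5a2 (0.60), against 2.02. For Pecam1 they were Depdc1a (0.28), Sulf1 (0.30) and Ncaph (0.31), against 1.76. Most of the variation is between the tissues, so likeness here is mainly likeness of the step between NP and AF.

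In NP between genotypes, where no VEGF gene was called, blood cell markers were lower in the arrays labelled TonEBP +/-: 3 of 13 neutrophil genes, Mpo (-3.33, adjusted p = 0.00790), Elane (-3.21, adjusted p = 0.0274) and Ctsg (bound -0.98, adjusted p = 0.0208), and 2 of 7 erythroid genes, Slc4a1 (-3.03, adjusted p = 0.0109) and Ermap (bound -0.40, adjusted p = 0.0401). Of all clusters 0.113% were called lower there and 0 higher. With the spread of the NP arrays alone these neutrophil and erythroid genes had adjusted p of 0.123 to 0.193.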
